A study of Mus musculus with 6 samples.

Results

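The genes described here encode subunits of the ion channels, the sodium pump and the gap junctions that set the electrical behaviour of heart muscle. They were chosen by symbol: 31 gene symbols in sodium, calcium, potassium, pacemaker and gap junction groups were looked up in the platform annotation, and each gene was represented by the probe set with the highest mean log2 signal. Of the 31, 29 had a probe set, out of 18193 genes with one on the array, and no probe set in the annotation used here carried the symbols Cacnb3 or Hcn4. HL-1 cells, a contracting line derived from a mouse atrial tumour, were kept confluent for 8 hours at 1% oxygen (hypoxia, 3 arrays) or at 21% oxygen (normoxia, 3 arrays), and total RNA was hybridised to one-colour Affymetrix mouse arrays. No other agent, genotype or time was used, and all 6 samples are of this one line. The comparison asks how cultured atrial muscle cells respond to low oxygen. Nothing in the labels says that the samples of a group came from separate cultures, so their spread may be technical only.

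An action potential in atrial muscle starts with sodium entry, is held by calcium entry through L-type channels and ends as potassium leaves through delayed rectifier channels. Inward rectifiers hold the resting potential, HCN and T-type calcium channels contribute to pacemaking, the sodium pump restores the ion gradients, and connexins carry the current from cell to cell. Values are signals of the array maker's MAS5 software on a linear scale, given as mean ± SD of 3 arrays per group unless each array is listed in replicate order. Differences are log2 fold changes of hypoxia over normoxia each with its moderated SE (standard error) from limma, and adjusted p-values cover all 22518 probe sets kept, those with a geometric mean signal above 14.1. Signals of different probe sets cannot be ranked as amounts of RNA, so a brighter probe set does not mean a more abundant transcript. In RNA from whole cultures, fewer cells of a type and less RNA per cell cannot be told apart.

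The 6 arrays had median signals between 15 and 19. Of 29 marker genes of cardiac and other cell types that have a probe set, 18 were kept and 0 passed the limma test, with 4 higher (Nppa, Sln, Cnn1 and Cd68) and 1 lower (Myl3) at an unadjusted p under 0.05. All 8 genes listed as atrial muscle markers were kept (Myl7, Myl4, Nppa, Sln, Tnnt2, Actc1, Myh6 and Tbx5), though not all are specific to atria. Their summed signal was 29581 to 32166 on the hypoxia arrays and 29934 to 31721 on the normoxia arrays. Of the 8, 4 had a log2 fold change below 0 and 4 above. The sum does not show the differences of Nppa and Sln. In limma these were 0.76 (SE 0.23, adjusted p = 0.240) and 0.88 (SE 0.26, adjusted p = 0.231) on the log2 scale. Of 3 ventricular muscle markers 2 were kept (Myl2 and Myl3, not Irx4), with sums of 325 to 407 in hypoxia and 357 to 451 in normoxia. Markers of other cell types were partly above the filter. Of 4 macrophage markers 3 were kept (Adgre1, Csf1r and Cd68, not Ptprc), with a summed signal of the 4 of 89.0 to 123 in hypoxia and 69.4 to 114 in normoxia. Of 4 fibroblast markers 2 were kept (Col1a1 and Col3a1, not Pdgfra or Dcn), with sums of 112 to 204 in hypoxia and 98.2 to 116 in normoxia. Of 4 endothelial markers 1 was kept (Kdr, not Pecam1, Cdh5 or Tek), with sums of 70.9 to 124 in hypoxia and 80.4 to 96.7 in normoxia. Of 3 smooth muscle markers 2 were kept (Cnn1 and Smtn, not Myh11), with sums of 379 to 590 in hypoxia and 315 to 398 in normoxia, and of 3 neuronal or glial markers 0 were kept. The part of such cells in the values below was not tested. The arrays that agreed least with the rest of their own group were hypoxia replicate 3 and normoxia replicate 1, with array weights of 0.579 and 0.587, against 0.923 to 2.12 for the other arrays.

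Of the 29 channel and connexin genes, 19 were kept by the filter (65.5%, against 62.3% of all genes), and none of these passed at an adjusted p under 0.05. The smallest adjusted p among them was 0.199, for Kcnh2. Among all 11332 genes kept, 75 (0.662%) were called higher, 10 (0.0882%) lower and 0.750% either way, shares that leave a list of 19 genes little room for a call. At an unadjusted p under 0.05, 4 of the 19 were lower in hypoxia (Fxyd1, Cacna1g, Cacna2d1 and Kcnh2) and 0 were higher, beside 6.30% and 6.13% of all genes. Of the 19, 17 had a log2 fold change below 0, with a median of -0.22, while 55.6% of all genes lay below 0, with a median of -0.04. All 3 hypoxia arrays lay below all 3 normoxia arrays for 4 of the 19 (21.1%), namely Fxyd1, Cacnb2, Cacna2d1 and Kcnh2, and above them for 0. Over all genes the groups did not overlap for 18.1%, with hypoxia below for 9.91% and above for 8.16%. After centring each array on its median, which moved the median of all genes to 0.07 and left 40.1% of them below 0, 14 of the 19 were below 0 with a median of -0.10. For 13 of the 19 the 95% interval lay within a 2-fold difference in either direction (74.2% of all genes), while those of Cacna1c, Cacna1d, Cacna1g, Cacna1h, Cacna2d1 and Kcnq1 reached past it on the lower side.

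**Figure D1:**
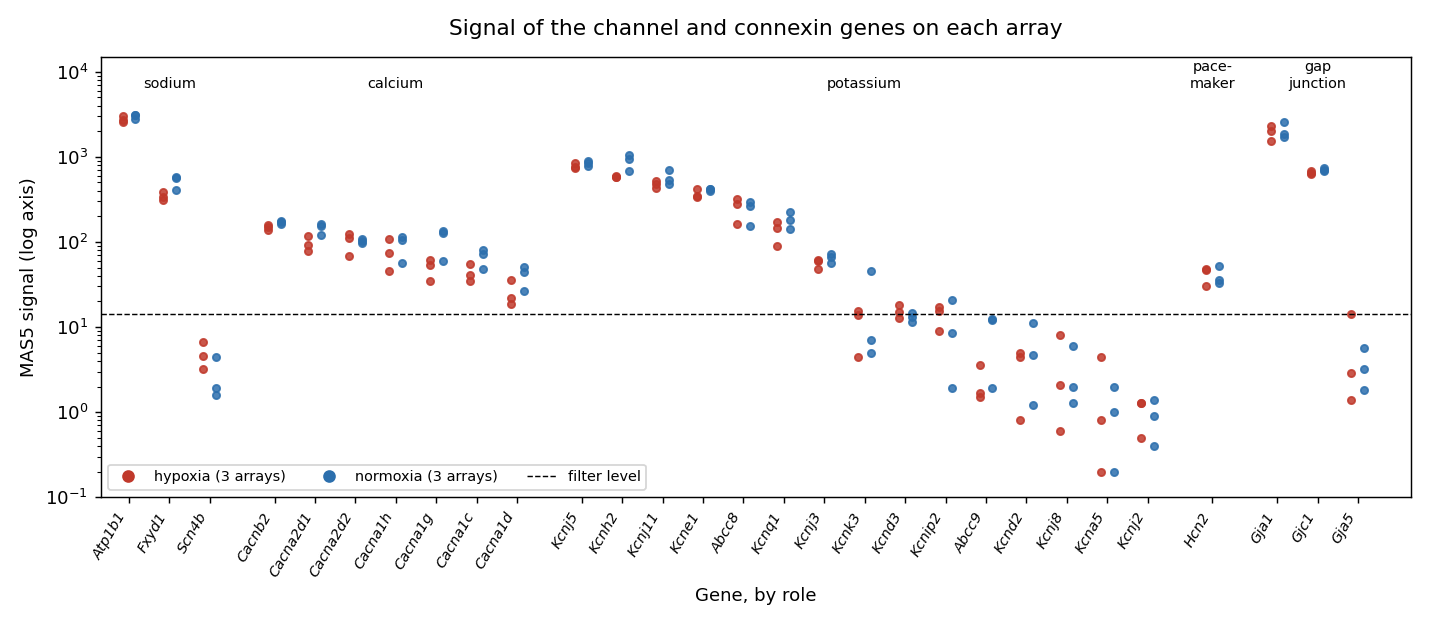
MAS5 signal (log axis) of the 29 channel and connexin genes with a probe set, by role, with 1 point per array for hypoxia (red, left) and normoxia (blue, right). The dashed line is the filter level of 14.1, applied to the geometric mean of the 6 arrays, and the 10 genes under it include Scn4b, Gja5, Kcna5 and Kcnj2.

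**Figure D2:**
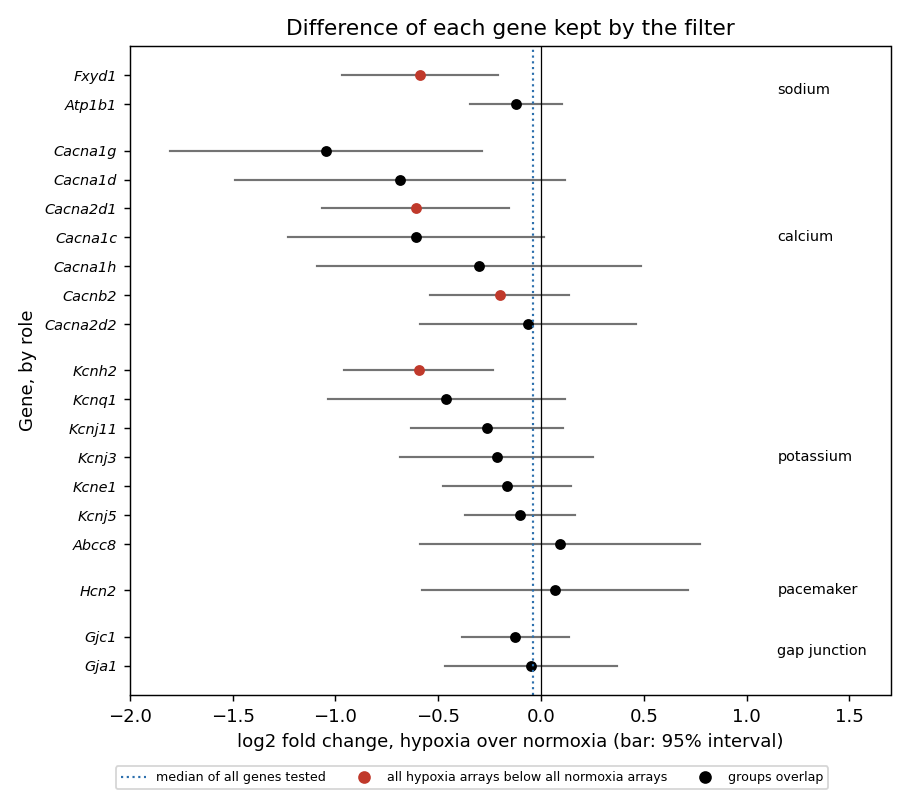
Log2 fold change of hypoxia over normoxia for the 19 genes kept by the filter, by role, with 95% intervals from limma. Of these, 17 lie below 0, and the red points are the 4 genes whose hypoxia arrays were all below the normoxia arrays.

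In the sodium group, both genes of the sodium pump were kept. Fxyd1, phospholemman, a small membrane protein that regulates the pump in heart, had signals of 383, 335 and 309 on the hypoxia arrays, against 410.0, 574 and 571 on the normoxia arrays. The groups did not overlap, although the lowest normoxia array, replicate 1, lay close to the highest hypoxia array. In limma the difference was -0.59 on the log2 scale (SE 0.17, adjusted p = 0.223), or 342 ± 37.4 in hypoxia and 518 ± 93.9 in normoxia. Atp1b1, the beta subunit that the pump needs to reach the membrane, had signals of 2564, 3000.2 and 2726 in hypoxia and 2812, 3112 and 3093 in normoxia. These groups overlapped and differed by -0.12 on the log2 scale (SE 0.10, adjusted p = 0.690). It had 5 probe sets, all kept and all below 0 (-0.35 to -0.01), and 3 of them did not overlap between the groups, but none passed. Scn4b, an auxiliary sodium channel subunit, lay under the filter on every array, with signals of at most 6.6.

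All 7 calcium channel genes with a probe set were kept and all 7 had a log2 fold change below 0, with a median of -0.61, but 0 passed. Cacna1g, the pore of a T-type channel that opens at low voltage, showed the largest difference of the 19. Its signals were 62.0, 54.0 and 34.9 in hypoxia, against 60, 135 and 127 in normoxia. The groups overlapped because normoxia replicate 1 lay between the hypoxia arrays, and the log2 fold change was -1.05 (SE 0.34, adjusted p = 0.286). Without that array it passed in limma (-1.42, adjusted p = 0.0450), and over all 19 alternatives run for it the adjusted p ranged from 0.0179 to 0.689. Cacna1h, another T-type pore, ranged from 45.6 to 107 in hypoxia and from 56.1 to 113 in normoxia. Its log2 fold change was -0.30 (SE 0.35), and its other kept probe set lay at 0.03 (SE 0.40).

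The L-type pores Cacna1c, the main one of heart muscle, and Cacna1d, which is used in atria and the sinus node, were both kept. Cacna1c had 34.4, 55.8 and 41.3 in hypoxia and 47.5, 81.5 and 72.5 in normoxia (log2 fold change -0.61, SE 0.28, adjusted p = 0.467). Cacna1d had 21.7, 18.5 and 36.0 in hypoxia and 26.8, 44.8 and 50.2 in normoxia (log2 fold change -0.69, SE 0.36, adjusted p = 0.533). Its other kept probe set had 18.2, 1.6 and 16.9 in hypoxia and 21.4, 21.9 and 36.6 in normoxia, with no overlap, a difference of -1.71 (SE 0.86, adjusted p = 0.518) and 1 hypoxia array far below the rest, and the mean of both probe sets gave -1.20 (adjusted p = 0.412). For the probe sets that represent these genes, 1 hypoxia array lay above the lowest normoxia array, normoxia replicate 1. Cacna2d1, the alpha2-delta subunit that helps L-type channels reach the membrane, had 92.1, 78.5 and 116 in hypoxia and 161, 121 and 153 in normoxia. These groups did not overlap (log2 fold change -0.61, SE 0.20, adjusted p = 0.302). Its probe sets were not all alike: of 4 kept, including the one just given, 3 lay below 0, down to -0.66, and 1 above, at 0.20. Cacnb2, the beta subunit that modulates gating, had signals of 158, 148 and 139 in hypoxia and 163, 176 and 173 in normoxia. Here too the groups did not overlap, with a smaller difference of -0.20 (SE 0.15, adjusted p = 0.663). Cacna2d2 had a log2 fold change of -0.06 (SE 0.24).

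Among the 15 potassium channel genes, 7 were kept, 6 of them below 0, and 0 passed. Kcnh2 encodes the pore of the rapid delayed rectifier, which repolarises HL-1 cells. Its signals were 574, 588 and 589.8 in hypoxia, against 687, 955 and 1047 in normoxia. The hypoxia arrays lay within a narrow band under all 3 normoxia arrays, which were far more spread (584 ± 8.33 in hypoxia and 896 ± 187 in normoxia). The log2 fold change was -0.60 (SE 0.16), or 1.51-fold lower, with an adjusted p = 0.199 that missed the threshold. In limma it passed with arrays weighted by their agreement with their group (-0.72, adjusted p = 0.0308). It also passed once normoxia replicate 1 was left out (-0.78, adjusted p = 0.0324), while over the other alternatives the adjusted p reached 0.617 without normoxia replicate 3. Kcnq1, the pore of the slow delayed rectifier, had 146, 170.2 and 90.4 in hypoxia and 143, 223 and 183 in normoxia. The groups overlapped (log2 fold change -0.46, SE 0.26, adjusted p = 0.562). Its partner Kcne1, a single-pass subunit that slows the channel, had 417, 348 and 336 in hypoxia and 395, 419.6 and 416 in normoxia (log2 fold change -0.17, SE 0.14, adjusted p = 0.703).

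The promoters of the 3 genes with an unadjusted p under 0.05 and no overlap between the groups are shown because hypoxia-inducible factors bind a short core, ACGTG or GCGTG. Each is the 250 bases before the start of the RefSeq gene on GRCm38.p6, in the direction of transcription: Fxyd1 at chr7:31054854-31055103 (minus strand), Cacna2d1 at chr5:15934441-15934690 (plus strand) and Kcnh2 at chr5:24329592-24329841 (minus strand). Capitals mark that core and the GC box GGGCGG, each searched on both strands.
Fxyd1: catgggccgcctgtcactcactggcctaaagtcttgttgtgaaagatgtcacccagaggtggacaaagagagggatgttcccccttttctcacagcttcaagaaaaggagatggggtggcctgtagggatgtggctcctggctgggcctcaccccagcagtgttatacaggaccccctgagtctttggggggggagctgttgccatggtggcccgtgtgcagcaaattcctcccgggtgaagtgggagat
Cacna2d1: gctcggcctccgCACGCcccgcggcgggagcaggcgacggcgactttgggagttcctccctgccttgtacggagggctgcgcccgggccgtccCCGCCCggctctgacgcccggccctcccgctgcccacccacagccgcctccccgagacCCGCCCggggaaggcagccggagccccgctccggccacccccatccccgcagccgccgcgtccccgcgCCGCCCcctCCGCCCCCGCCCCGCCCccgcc
Kcnh2: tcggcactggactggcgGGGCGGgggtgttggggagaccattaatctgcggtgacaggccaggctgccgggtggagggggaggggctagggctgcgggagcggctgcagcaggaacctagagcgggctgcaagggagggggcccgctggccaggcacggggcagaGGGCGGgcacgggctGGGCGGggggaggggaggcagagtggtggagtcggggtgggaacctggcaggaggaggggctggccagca
The core was found 0 times for Fxyd1, 1 time for Cacna2d1 and 0 times for Kcnh2, and the GC box 0, 6 and 3 times, some of the Cacna2d1 matches overlapping. GC content was 57.2%, 82.4% and 73.6%. Of the 31 genes, 23 matched the promoter table, with 28 windows. The core was in 42.9% of these windows and in 38.6% of all 32851 windows, and the GC box in 57.1% and 32.7%. A match of letters describes the window only.

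The acetylcholine-gated inward rectifier of atrial muscle is built from Kcnj3 and Kcnj5, and both were kept. Kcnj5 had signals of 755, 735 and 854.5 in hypoxia and 882, 790.0 and 843 in normoxia, overlapping groups that differed by -0.10 on the log2 scale (SE 0.12, adjusted p = 0.786). Kcnj3 ranged from 47.8 to 61.6 in hypoxia and from 56.0 to 72.7 in normoxia (log2 fold change -0.22, SE 0.21). The ATP-sensitive potassium channel, which opens when cellular ATP falls, pairs a pore with a sulfonylurea receptor, and its genes lie in adjacent pairs, Kcnj11 beside Abcc8 on chromosome 7 and Kcnj8 beside Abcc9 on chromosome 6. In mouse atrial muscle the Kcnj11 and Abcc8 products are the known partners. Both were kept here, while Kcnj8 (at most 8.1) and Abcc9 (at most 12.5) stayed under the filter. Kcnj11 had 486, 519 and 426.5 in hypoxia and 484.5, 707 and 540.1 in normoxia. These overlapped (log2 fold change -0.26, SE 0.17, adjusted p = 0.607), whereas a second, dimmer probe set had -1.02 with no overlap between the groups and did not pass (adjusted p = 0.262). Abcc8 ranged from 162 to 324 in hypoxia and from 152 to 296 in normoxia, with a log2 fold change of 0.09 (SE 0.30), and its other probe set lay at -0.31.

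The genes of the transient outward and ultrarapid currents, Kcnd2, Kcnd3, Kcnip2 and Kcna5, lay under the filter, as did Kcnj2, the classical inward rectifier, and Kcnk3, an acid-sensitive background channel. Kcnj2 did not exceed 1.4 and Kcna5 did not exceed 4.5 on any array. With Scn4b, Kcnj8, Abcc9 and Gja5 they make up the 10 genes under the filter. In the fit without a filter their standard errors were 0.50 to 1.23 on the log2 scale and the groups overlapped for all 10, and each of their 95% intervals reached past a 2-fold difference. Their log2 fold changes ran from -1.66 to 0.94, with Kcnj8, Abcc9, Kcnd2 and Kcnk3 below 0 and the others above. Of all 29 genes in that fit, 21 lay below 0 (72.4%, against 55.7% of all genes), with a median of -0.20 against -0.05. Kcnk3 shows the spread at this level, with 13.9, 4.4 and 15.5 in hypoxia and 4.9, 45.2 and 7.0 in normoxia.

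Hcn2 was the one gene of the pacemaker group with a probe set, Hcn4 having none. It had 48.5, 46.9 and 30.4 in hypoxia and 33.0, 51.7 and 35.3 in normoxia. The arrays of both groups were interleaved, and the means of log2 signal differed by 0.07 (SE 0.29, adjusted p = 0.950).

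Connexin 43, encoded by Gja1 and the main gap junction protein of working heart muscle, gave signals of 1554, 2034 and 2318 in hypoxia and 2597, 1699.5 and 1839 in normoxia. The groups overlapped and the log2 fold change was -0.05 (SE 0.19, adjusted p = 0.944), with a 95% interval from -0.47 to 0.37. Gja1 had 6 probe sets, 5 below 0 (lowest -0.33) and 1 dim one at 0.77, and 0 passed. The one used is of the x_at type, which can bind related transcripts, and the brightest other type had -0.23 with no overlap between the groups. Gjc1, connexin 45, known from conduction tissue and the early heart, had 683, 647 and 623 in hypoxia and 707, 746 and 676 in normoxia (log2 fold change -0.12, SE 0.12, adjusted p = 0.735), with 1 hypoxia array above the lowest normoxia array. Gja5, connexin 40 of atrial muscle, was under the filter with at most 14.1 on any array.

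**Figure D3:**
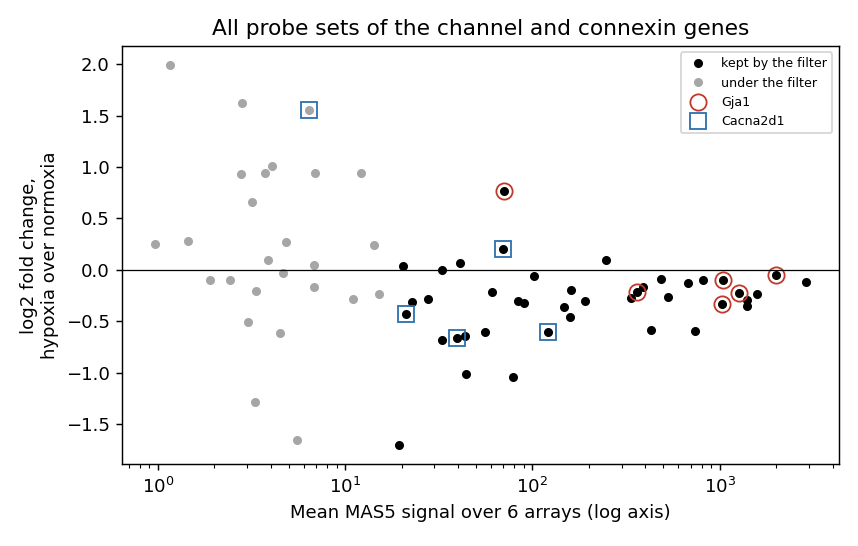
Log2 fold change against mean signal (log axis) for all 68 probe sets of the 29 genes, black where kept by the filter and grey where under it, the latter from the fit without a filter. Of the 42 kept, 37 lie below 0, and the circled Gja1 and boxed Cacna2d1 probe sets lie on both sides of 0.

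Over all their probe sets, 42 of 68 were kept and 37 of these lay below 0 (88.1%, against 55.6% of all 22518 probe sets kept), with 0 called. At an unadjusted p under 0.05, 7 of the 42 were lower (16.7%, against 5.64% of all kept), and probe sets of 1 gene share its RNA. Of 13 genes with at least 2 kept probe sets, 9 had all of them below 0. The position of the 19 genes also differed between arrays of one group. Their median deviation from each gene's mean was -0.10, -0.10 and -0.28 on the log2 scale on the hypoxia arrays, against -0.06, 0.27 and 0.16 on the normoxia arrays, while over all genes it stayed between -0.02 and 0.04. Hypoxia replicate 3 was the lowest of all 6 arrays for 10 of the 19 genes, and normoxia replicate 1 was the lowest normoxia array for 14. With either or both of these arrays left out, the median log2 fold change of the 19 was -0.17 without hypoxia replicate 3, -0.32 without normoxia replicate 1 and -0.21 without both. Without both, an alternative chosen after seeing the data, Kcnh2, Cacna1g and Fxyd1 passed in limma (adjusted p = 0.0119, 0.0179 and 0.0439). Leaving out the arrays that fit their group least lowers the fitted spread by construction, and 89 genes were then called lower in place of 10. What sets these arrays apart was not tested.

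**Figure D4:**
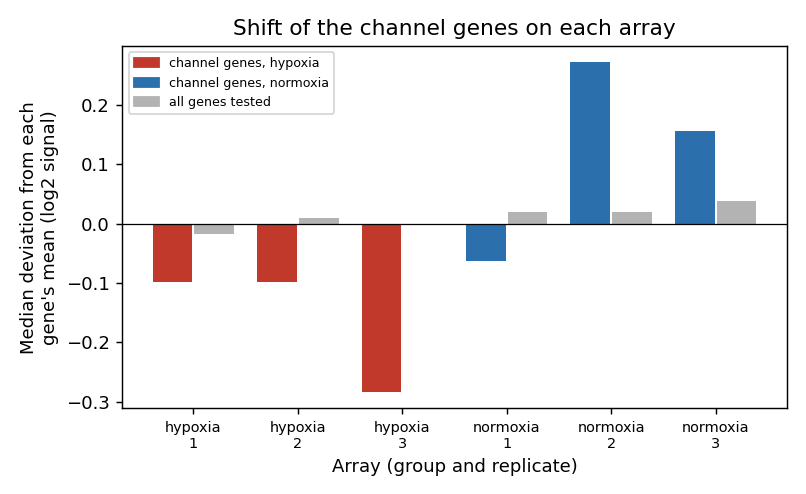
Median deviation of log2 signal from each gene's mean over 6 arrays, for the 19 channel and connexin genes (red, hypoxia; blue, normoxia) and for all genes tested (grey), by array. Bars of the channel genes run from -0.28 on hypoxia replicate 3 to 0.27 on normoxia replicate 2, and normoxia replicate 1 lies below 0.

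Other channel, pump, pacemaker and junction genes were taken from a list of 104 symbols, of which 88 had a probe set and 40 were kept. None passed in limma. At an unadjusted p under 0.05, 5 were lower (12.5%) and 1 was higher, beside 6.30% and 6.13% of all genes. The groups did not overlap for 7 of the 40, with hypoxia below for 5 and above for 2, beside 9.91% and 8.16% of all genes. Of the 40, 21 lay below 0, with a median of -0.04, the same as over all genes. In its sodium group 6 of 9 lay below 0. Gpd1l, which affects sodium channel trafficking, had 169, 201 and 194.5 in hypoxia and 273, 306 and 325 in normoxia, without overlap (log2 fold change -0.68, SE 0.15, adjusted p = 0.101), and Fgf12, a channel-binding growth factor homologue, had -0.40 (adjusted p = 0.211). In the calcium group 9 of 13 lay below 0, among them Trpm4, a calcium-activated cation channel (-0.94, adjusted p = 0.313), and Rrad, a small GTPase that inhibits L-type channels (-0.34, adjusted p = 0.401). In the potassium group 3 of 8 lay below 0, with the modulatory subunits Kcng2 at -0.39 (adjusted p = 0.666) and Kcne4 at 0.73 (adjusted p = 0.489). All 3 kept genes of the pacemaker group lay above 0, including the transcription factors Shox2 at 0.30 (adjusted p = 0.538) and Tbx18 at 0.44 (adjusted p = 0.505). Of the junction genes 4 of 7 lay above 0, with the desmosomal proteins Dsp at 0.35 (adjusted p = 0.558) and Pkp2 at 0.49 (adjusted p = 0.410).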

How the data were processed

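RNA of HL-1 cells was measured on 6 arrays, 3 in each condition. The authors deposited 1 intensity per probe set and array on a linear scale; per the submitters' processing notes these are MAS5 signals, of unstated version (not given in the sources used here). Their trimmed mean was 99.5 on each array (2% off each end), so no further scaling was applied, and 0 of 15 array pairs were identical. The number of arrays limits the precision, and an exact permutation test of 3 against 3 cannot go below p = 0.1.

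Signals of 0 (10 values) were set to 0.1, values were log2 transformed, and probe sets with a mean above the median of all 45037 were kept. Limma 3.58.1 in R 4.3.3 (lmFit, eBayes with trend, two-sided, no covariates) compared hypoxia with normoxia, with Benjamini-Hochberg adjustment over all 22518 kept; genes under the filter took values from a fit without it. The procedure was tested on simulated data. Names came from the 2016 platform annotation, using probe sets with 1 symbol (34945; 932 had several and 9160 none). Promoters came from RefSeq (GRCm38.p6).

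The members and lists were chosen with earlier results of these data known. All members are named; from the other channel genes, those that passed and, in each group, the brightest and the one with the smallest p. Array values are given for the 12 members with the smallest p and the brightest of each group; Kcnk3, Gpd1l and the second probe sets were singled out after their values were seen. Alternatives were 3 normalizations, an offset of 2.9, 3 filters, 2 variance models, weights per array, a block for the replicate number, 2 probe set rules and leaving out arrays.

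Same-numbered arrays of the 2 groups had within-group deviations that correlated at -0.08, 0.21 and -0.14, so the numbers were not taken to pair the samples.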

Additional observations from a re-analysis of the deposited data

How the results depend on the processing

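The count of channel genes called higher was 0 under all 20 alternatives, and the count called lower was 0 except with array weights (1), without normoxia replicate 1 (leaving out 1 array gave 0 to 2) and without hypoxia replicate 3 and normoxia replicate 1 together (3). Of the other channel genes, 1, Gpd1l, was called lower with array weights and without those 2 arrays. The replicate block gave 0 channel genes in either direction and changed no other call named here. Over all genes it called 61 higher and 2 lower in place of 75 and 10. The correlations of same-numbered arrays were low and of mixed sign, which cannot show whether the samples were paired. The number of all genes called higher was 113 after median centring, 7 with eBayes without trend, 197 with array weights, 22 to 101 with 1 array left out and 186 without both arrays. The number called lower was 4, 2, 80, 1 to 27 and 89 under the same settings, and 17 for the mean of a gene's probe sets. The median log2 fold change of the channel genes stayed below 0, between -0.32 and -0.10. Of the 19, 13 were below 0 under every alternative, and the other 6, none of them called, changed sign under some. Median centring put Cacna2d2 at 0.0466, Kcnj5 at 0.0075 and Gja1 at 0.0617, array weights put Cacna2d2 at 0.0230, and averaging its probe sets put Abcc8 at -0.11. With 1 array left out, Cacna1h ranged from -0.63 to 0.0194, Cacna2d2 from -0.23 to 0.20, Abcc8 from -0.20 to 0.39, Hcn2 from -0.0577 to 0.28 and Gja1 from -0.18 to 0.14. With both arrays named above left out, Gja1 lay at 0.0081. The cause of these shifts was not tested. For the 10 genes under the filter, signals near background limit what could be seen.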

Other observations

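Within-group deviations over all probe sets kept were most alike between hypoxia replicate 3 and normoxia replicate 1 (correlation across probe sets 0.32, which are not independent replicates) and most opposed between hypoxia replicate 2 and normoxia replicate 1 (-0.30). Deviations within a group sum to 0 for each probe set, so these correlations constrain each other and are not separate observations. Of the desmosomal genes listed, Pkp2, Dsp and Dsg2 follow hypoxia replicate 3 and normoxia replicate 1. Pkp2 had 1109, 1127 and 1668 on the hypoxia arrays and 1159, 750.0 and 862 on the normoxia arrays, and Dsp had 1626, 1203 and 1870.0 on the hypoxia arrays and 1557, 1034 and 1094 on the normoxia arrays, each highest within its group on the array where most channel genes were lowest. Jup, plakoglobin of the same junctions, went the other way, with 146, 276 and 73.1 on the hypoxia arrays and 111, 444 and 327 on the normoxia arrays. These genes were singled out after their values were seen, and what the arrays share was not tested.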
